A study of Mus musculus with 2 samples.

Results

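Apoe and 7 other genes for the uptake, storage and export of lipid (Abca1, Abcg1, Lpl, Cd36, Plin2, Scarb1 and Lrp1) were followed in eGFP-marked smooth muscle cells (SMCs) of the mouse thoracic aorta. The set is a list of gene names, 8 of the 27998 genes with an Ensembl identifier in the deposited matrices, with no measured value in its rule, but it was drawn up with earlier results of these data known. The KO mice carried floxed Tsc1 alleles (Tsc1fl/fl, labelled Tsc1-/-) together with Myh11-CreERT2 and the mT/mG reporter. The control mice carried Myh11-CreERT2 and mT/mG without the floxed alleles and are labelled Tsc1+/+. Both genotypes were male C57BL/6 mice, both were given tamoxifen at an age of 1.5 weeks, and both were sampled at 24 weeks. Each genotype was represented by 1 droplet library of sorted, viable GFP-positive cells, and no source used here gives the number of animals behind a library. Myh11-CreERT2 is a tamoxifen-inducible recombinase driven by the smooth muscle myosin gene, so only cells that used this gene at the time of tamoxifen, and their descendants, carry the mark. The reporter shows recombination of its own locus and not of Tsc1.

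Cells with at least 5 eGFP UMIs (unique molecular identifiers, 1 per captured transcript), at least 500 genes and at most 10% mitochondrial UMIs were kept. They numbered 1919 of 2097 KO cells, with 30778165 UMIs, and 1692 of 2095 control cells, with 20011501 UMIs. The median depth was 15012 UMIs per KO cell and 11665 UMIs per control cell. Tsc1 itself had 263 UMIs in KO cells, 8.55 CPM (the count scaled to 1000000 UMIs of the cells summed), and 191 UMIs in control cells, 9.54 CPM. Droplet libraries read one end of a transcript, which may lie outside the deleted exons, so this is no check of the genotype labels. All 8 SMC markers were present in both libraries, at a summed 20917 CPM in KO cells and 43559 CPM in control cells. With 1 library per genotype there is no replicate check and no test. Every interval below is a 95% interval for counting error alone (exact Poisson for levels, exact binomial for ratios and shares of cells) and does not cover differences between animals or preparations.

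Contractile state was measured as the share of a cell's UMIs that came from 10 contractile genes (Acta2, Tagln, Myh11, Cnn1, Myl9, Tpm2, Mylk, Lmod1, Smtn and Actg2). The kept KO cells were split into 3 ranges of equal size at 1.28% and 2.93%, and the same limits were applied to the control cells. This gave 640 KO cells in the low range, 639 in the intermediate range and 640 in the high range, against 3, 198 and 1491 control cells. The ranges are cuts through a continuous measure and not cell types: 204 KO cells lay within 0.25 percentage points of the lower limit and 170 within that distance of the upper limit, and for control cells the numbers were 7 and 134. Only the intermediate and high ranges hold enough control cells for a comparison with KO cells.

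Apolipoprotein E, the product of Apoe, is a secreted protein that coats lipoprotein particles and is their ligand for receptors of the LDL receptor family, among them LRP1. Lipoprotein lipase (Lpl) frees fatty acids from triglyceride-rich particles, CD36 takes up fatty acids and oxidized lipoproteins, and SR-BI (Scarb1) exchanges cholesterol with HDL. ABCA1 hands cholesterol and phospholipid to lipid-poor apolipoproteins, ABCG1 adds cholesterol to HDL, and perilipin 2 (Plin2) coats the surface of lipid droplets. In arteries these genes are known best from macrophages and from SMCs that take up lipid in atherosclerosis.

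The upstream sequences of a pair of genes are shown. Of the genes of the set at 10 CPM or more in at least 1 library, Apoe differed most between the libraries. Abca1, a textbook target of the sterol-sensing LXR receptors, differed least of them. The pair does not set an LXR target against a gene that is none. Apoe (ENSMUSG00000002985) lies on the minus strand of chromosome 7 from 19696109 to 19699188, and Abca1 (ENSMUSG00000015243) on the minus strand of chromosome 4 from 53030787 to 53159895 (mm10, GENCODE). RefSeq promoters were available for 5 of the 8 genes, and each stretch below is the 250 bases before a RefSeq start (GRCm38.p6), written 5′ to 3′ on the strand of the gene. Capitals mark matches to CACGTG, the palindromic E-box of the MiT/TFE family of lysosomal regulators, or to an LXR-type element of GGTTA and GGTCA with 5 bases between them, searched on both strands.
Apoe, chr7:19699189-19699438, minus strand: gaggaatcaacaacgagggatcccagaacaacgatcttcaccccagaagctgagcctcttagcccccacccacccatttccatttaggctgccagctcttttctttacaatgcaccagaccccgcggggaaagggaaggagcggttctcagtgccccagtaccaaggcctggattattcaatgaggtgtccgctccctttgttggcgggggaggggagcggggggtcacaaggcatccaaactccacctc
Abca1, chr4:53159896-53160145, minus strand: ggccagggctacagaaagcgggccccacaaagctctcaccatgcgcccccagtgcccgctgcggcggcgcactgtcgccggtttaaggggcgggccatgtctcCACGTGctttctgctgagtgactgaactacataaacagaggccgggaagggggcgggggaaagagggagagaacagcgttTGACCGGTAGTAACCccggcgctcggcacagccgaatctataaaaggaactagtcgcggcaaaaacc
The Apoe stretch held neither motif, nor did it hold AGGTCA repeated after 4 bases. The stretches before the other RefSeq starts of Apoe, not shown, held none of these either. The Abca1 stretch held CACGTG 147 bases and the LXR-type element 67 bases before the start, and the 2 matches do not overlap. Of 32851 RefSeq promoters cut to the same length, 1978 (6.02%) held CACGTG, 15 (0.0457%) held the LXR-type element and 5 (0.0152%) held the repeat. The Abca1 stretch did not hold the repeat either. The letters of the LXR-type element may have been taken from Abca1 itself, so its match there and the rarity beside it are no finding. These matches describe letters in a window and say nothing of binding.

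Of the 8 genes, 5 reached 10 CPM in at least 1 library, the level set for calling a difference. Relative to control cells, 4 of these 5 (Apoe, Lpl, Plin2 and Lrp1) were at least 1.5 times higher in KO cells, none was as much lower, and Abca1 fell between. Among all 8112 genes at 10 CPM, 13.2% passed this fold upward in KO cells and 11.4% passed it downward. The median log2 ratio of the 5 genes was 0.67, beside -0.0010 for all genes at that level. Scarb1, Cd36 and Abcg1 stayed below 10 CPM in both libraries.

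**Figure D1:**
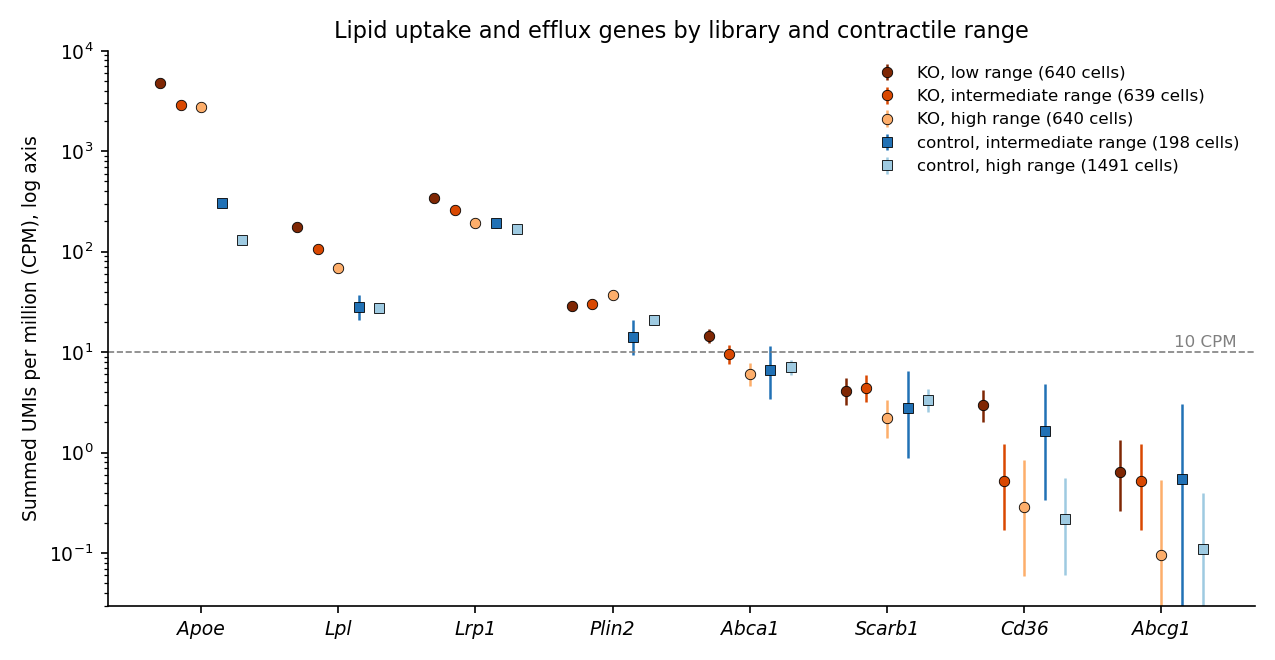
Level of each gene, in CPM on a log axis, in the KO low, intermediate and high contractile ranges (circles) and in the control intermediate and high ranges (squares), with exact 95% Poisson intervals. The Apoe points of KO cells lie between 2773 and 4782 CPM, above the control points at 307 and 129 CPM. For Abca1 and Scarb1 the KO points lie on both sides of the control points. Those of Abca1 run from 6.05 to 14.5 CPM in KO cells, with control points at 6.61 and 7.10 CPM.

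Apoe had 107972 UMIs in KO cells, 3508 CPM (3487 to 3529), against 2995 UMIs in control cells, 150 CPM (144 to 155). The KO level was 23.4 times that of control cells (22.6 to 24.3). In KO cells 0.351% of all UMIs came from this gene, against 0.0150% in control cells. The separation was almost complete at the level of cells. Of 1919 KO cells 4 had no Apoe UMI, the median cell had 2413 CPM, and 1635 cells (85.2%) were over 1000 CPM. Of 1692 control cells 869 had no Apoe UMI, the median cell was at 0, and 52 cells (3.07%) were over 1000 CPM.

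Shares of cells with a UMI depend on depth, so each cell was thinned to 5000 UMIs, which left out 17 KO cells and 90 control cells. An Apoe UMI was then found in 99.5% of KO cells and 31.7% of control cells (99.8% and 48.6% before thinning). The only cells in the libraries that should make little Apoe were lymphocyte-marker cells without eGFP, with 3 or more UMIs of B, T or NK cell markers. At a depth of 3000 UMIs, which more of these shallow cells reach, the share was 97.9% in KO SMCs and 26.1% in control SMCs, against 28.6% (18.8 to 40.0) in 77 lymphocyte-marker cells of the control library, whose median depth was 3900 UMIs. The share in control SMCs was thus no higher than in these lymphocyte-marker cells, so a fraction of control SMCs that use the gene is not read from it. The part of free RNA in the control Apoe counts was not tested. Lymphocyte-marker cells are an imperfect guide, because 428 Apoe UMIs in 141 of them included 177 in a single cell, and because they carried 629 Xist UMIs in libraries labelled male. Only 4 lymphocyte-marker cells were found in the KO library, with 8 Apoe UMIs in 2 of them, 440 CPM (190 to 866), below the 3508 CPM of the KO SMCs around them.

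**Figure D2:**
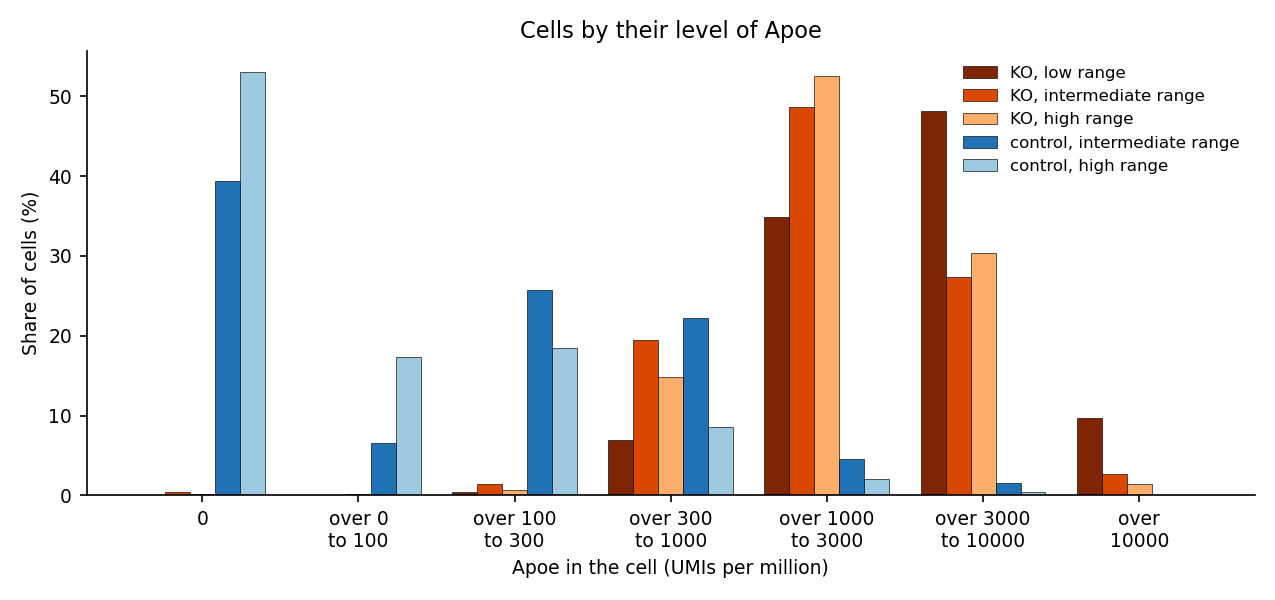
Share of cells (vertical axis, %) in 7 classes of Apoe level (horizontal axis, CPM in the cell) for the 3 KO ranges and the 2 control ranges. KO cells of all ranges peak between 1000 and 10000 CPM, whereas 53.1% of control cells of the high range and 39.4% of those of the intermediate range are at 0.

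Apoe was thus found in nearly all KO cells, while in control cells its fewer UMIs lay in a smaller part of the cells. The highest 10% of KO cells held 35.8% of the Apoe UMIs of their library, against 64.1% for the highest 10% of control cells. Such a share is larger for sparser counts. In control cells it was 58.0% for Lpl and 56.0% for Plin2, and counts were not matched between the libraries. The 52 control cells over 1000 CPM alone held 40.8% of the control Apoe UMIs. These cells were chosen for their Apoe, so that level (2324 CPM) is no finding, but other readouts were free to differ. They carried eGFP at 6087 CPM, close to the 5648 CPM of the other control cells, and a median contractile share of 4.28%, against 4.77%. Macrophage markers summed to 9.51 CPM in them and 16.3 CPM in the other control cells. Lpl was at 22.8 and 27.8 CPM, Npc2 at 158 and 136 CPM, and Spp1, a gene of modulated SMCs, had no UMI in either. The 52 cells had a median depth of 9802.5 UMIs, against 11781 UMIs in the other control cells. Their macrophage and Lpl levels rest on few UMIs, and no interval was taken for them.

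Lpl (chromosome 8, 68880491 to 68907448, plus strand) showed the next largest difference. It had 3639 UMIs in KO cells, 118 CPM, against 553 UMIs in control cells, 27.6 CPM, a ratio of 4.28 (3.91 to 4.69). After thinning, 35.3% of KO cells and 11.6% of control cells had an Lpl UMI, and at 3000 UMIs none of 77 lymphocyte-marker cells had one, which allows a share of up to 4.68%.

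Lrp1 (chromosome 10, 127538161 to 127621148, minus strand), the endocytic receptor for ApoE-bearing particles and for many proteases, had 8161 UMIs in KO cells, 265 CPM, against 3380 UMIs in control cells, 169 CPM. The ratio was 1.57 (1.51 to 1.63). Thinned shares were 69.9% of KO cells and 56.6% of control cells. At 3000 UMIs the shares were 52.1% of KO cells and 40.1% of control cells, so they describe detection at a given depth.

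Plin2 (chromosome 4, 86648386 to 86670060, minus strand) had 989 UMIs in KO cells, 32.1 CPM, against 405 UMIs in control cells, 20.2 CPM. Its ratio was 1.59 (1.41 to 1.79), an interval that includes the 1.5-fold limit, while that of Lrp1 lay just above the limit. A Plin2 UMI was found in 14.0% of thinned KO cells and 9.68% of thinned control cells.

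Abca1 had 311 UMIs in KO cells, 10.1 CPM, against 141 UMIs in control cells, 7.05 CPM, a ratio of 1.43 (1.17 to 1.76). It therefore just reached the level for a call and missed the fold. Its partner in sterol efflux, Abcg1 (chromosome 17, 31057675 to 31117988, plus strand), was close to absent, with 13 UMIs in 12 KO cells and 3 UMIs in 3 control cells, a ratio of 2.82 with an interval of 0.774 to 15.4. Scarb1 (chromosome 5, 125277087 to 125341094, minus strand) had 109 UMIs in KO cells and 66 in control cells, 3.54 and 3.30 CPM, a ratio of 1.07 (0.784 to 1.48). Cd36 (chromosome 5, 17781690 to 17888801, minus strand) had 40 UMIs in 28 KO cells and 7 UMIs in 5 control cells, a ratio of 3.72 (1.65 to 9.83). The scavenger receptor and the HDL genes were thus at 0.422 to 3.54 CPM in KO cells, and depth does not allow a finer statement about them.

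Because most control cells were in the high contractile range and KO cells were spread over all of them, the libraries were also compared within a range. In the high range, the KO cells had Apoe at 2773 CPM and the control cells at 129 CPM, a ratio of 21.4 (20.6 to 22.4). Lpl stood at 69.1 CPM in KO cells and 27.6 CPM in control cells of this range, 2.51 times higher (2.23 to 2.82). Plin2 was 1.80 times higher (1.55 to 2.07), at 37.4 CPM in KO cells and 20.9 CPM in control cells. Lrp1 no longer passed the fold, at 191 CPM in KO cells and 166 CPM in control cells, a ratio of 1.15 (1.09 to 1.22). Abca1 had 6.05 CPM in KO cells and 7.10 CPM in control cells, a ratio of 0.852 (0.620 to 1.16). Of the 4 genes at 10 CPM, 3 were higher, beside 9.48% of all 7925 genes higher and 10.4% lower. The median contractile share within the range still differed, at 4.11% in KO cells and 5.04% in control cells.

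In the intermediate range, where control cells are few, Apoe had 2871 CPM in KO cells and 307 CPM in control cells, a ratio of 9.34 (8.59 to 10.2). Lpl was 3.83 times higher (2.89 to 5.17), at 107 CPM in KO cells and 28.1 CPM in control cells, and Plin2 2.11 times (1.41 to 3.29), at 30.2 and 14.3 CPM. Lrp1 had 263 CPM in KO cells and 193 CPM in control cells, a ratio of 1.36 (1.22 to 1.53). Here 3 of 4 genes passed the fold, beside 11.4% of 8435 genes higher and 17.7% lower. The 3 control cells of the low range together held 87 Apoe UMIs, 3560 CPM (2851 to 4391), and 1 Lpl UMI. They are too few to compare.

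Between these ranges the Apoe level of KO cells moved little, with an intermediate over high ratio of 1.04 (1.02 to 1.05), while that of control cells was 2.38 times higher in the intermediate range (2.16 to 2.61). Among all 8153 genes at 10 CPM in control cells, 14.6% passed the fold upward in the intermediate range and 3.64% downward. Apoe was the only 1 of the 4 members at that level to pass, and Lpl and Lrp1 had ratios of 1.02 and 1.16.

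Within the KO library, cells with little contractile RNA carried more of 4 of the 5 genes at 10 CPM. Among all 8032 genes at that level, 12.4% passed the fold upward in the low against the high range and 8.75% downward. Apoe had 4782 CPM in the low range, 2871 CPM in the intermediate range and 2773 CPM in the high range, a low over high ratio of 1.72 (1.70 to 1.75). Lpl was graded across all ranges, at 175 CPM in the low, 107 CPM in the intermediate and 69.1 CPM in the high range, 2.53 times higher in the low than in the high range (2.32 to 2.76). Lrp1 followed the same order at 339, 263 and 191 CPM, a ratio of 1.77 (1.68 to 1.87). Abca1 had 14.5, 9.51 and 6.05 CPM, a ratio of 2.40 (1.78 to 3.27).

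Plin2 ran the other way, with 28.7 CPM in the low, 30.2 CPM in the intermediate and 37.4 CPM in the high range, a low over high ratio of 0.767 (0.658 to 0.892) that did not pass the fold. The lipid droplet coat was therefore the only one of the 5 whose low-range level lay under its high-range level. Of the genes under 10 CPM, Cd36 had 32 UMIs in the low range and 3 UMIs in the high range, a ratio of 10.3 (3.22 to 52.5). Scarb1 had 44 UMIs in the low range and 23 in the high range, 1.85 times higher (1.09 to 3.20), and Abcg1 had 7 UMIs against 1. The sum of 6 fibroblast markers moved with these ranges, at 1698 CPM in the low range and 204 CPM in the high range of KO cells. Dcn had 871 CPM in the low and 43.9 CPM in the high range, and Lum 624 and 33.3 CPM. Col14a1 changed less, at 148 and 116 CPM. None of the 6 was at 0 in the low range, though Pi16 had only 1 UMI there. The part of these markers in the Apoe and Lpl values was not tested. The 6 endothelial markers moved the same way at a far lower level, with 19.5 CPM in the low range and 6.43 CPM in the high range, of which Pecam1 made up 17.3 and 5.67 CPM, while Cdh5, Kdr and Tie1 were at 0 in both. The 8 lymphocyte markers had 4.35 CPM in the low range and 1.25 CPM in the high range, with Cd3d, Cd3e and Cd3g at 0 in both. Their part was not tested either. The sum of the macrophage markers differed less, at 17.3 CPM in the low range and 13.3 CPM in the high range, with Adgre1, C1qa, C1qc, Fcgr1 and Mrc1 at 0 in both. Among them Csf1r had 28 UMIs in the low and 9 UMIs in the high range, and Cd68 91 and 48 UMIs. Lyz2 went the other way, with 22 and 31 UMIs, as did Tyrobp, with 18 and 33 UMIs.

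Ordering the cells into 10 equal bins by contractile share showed where the levels change. In KO cells Apoe had 5391 CPM in the bin of lowest share (mean 0.261% of UMIs), reached its lowest value of 2289 CPM in the sixth bin and had 2778 CPM in the bin of highest share. The decline thus ended in the middle of the order. Lpl was at 168, 190 and 188 CPM in the first 3 bins and at 60.3 and 66.8 CPM in the last 2. Lrp1 descended in every step, with 364 CPM in the first and 174 CPM in the last bin. Plin2 was 28.2 CPM in the first and 43.9 CPM in the last bin. In control cells Apoe was highest in the bin of lowest share, at 351 CPM, and lowest in the last bin, at 73.4 CPM, while Lpl stayed between 20.4 and 35.4 CPM with no order. No control bin reached the Apoe level of any KO bin. The lowest control bin had a mean share of 2.26%, so KO bins of lower share have no control bin beside them.

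**Figure D3:**
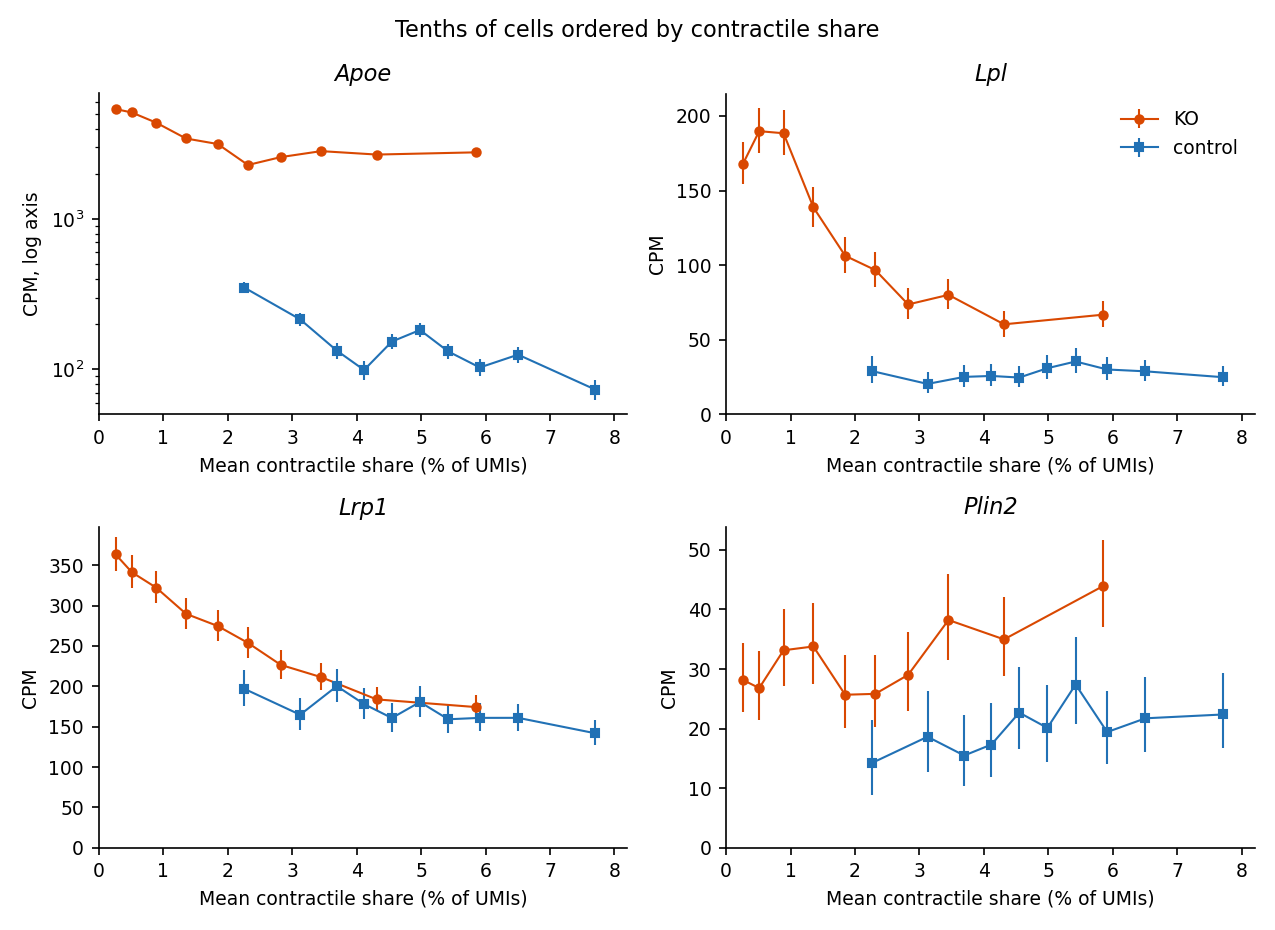
Level in CPM (vertical axes, log for Apoe and linear from 0 for Lpl, Lrp1 and Plin2) in 10 bins of equal cell number ordered by contractile share (horizontal axes, mean % of UMIs per bin), for KO cells (circles) and control cells (squares), with exact 95% Poisson intervals. The Apoe curves stay apart over the shares at which both libraries have bins, and the lowest control bin has a mean share of 2.26%. The Lrp1 curves come close where the share is above about 3%.

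Macrophages are the usual source of Apoe and of several of these genes in an artery, so their markers were measured in the kept cells. The 13 macrophage markers summed to 15.6 CPM in KO cells and 16.1 CPM in control cells, led by Cd68 at 6.14 and 6.30 CPM. Adgre1 and Fcgr1 were at 0 in both libraries, and Lyz2 had 3.35 CPM in KO cells and 4.60 CPM in control cells. The members did not all stay level. Csf1r had 52 UMIs in KO cells and 4 UMIs in control cells, and Cd14 had 45 and 13 UMIs. Tyrobp was lower in KO cells, at 2.40 CPM against 3.35 CPM, as was Ctss, at 0.260 CPM against 0.550 CPM. With every cell that had a UMI of this list left out, the Apoe ratio was 22.1. Of 6 endothelial markers, which sum to 12.4 CPM in KO cells and 19.8 CPM in control cells, Cdh5 and Tie1 were at 0 in both. Of 7 adipocyte markers, Fabp4, which endothelial cells also use, made up nearly all of the sum, with 168 CPM in KO cells and 124 CPM in control cells, and Cfd, Cidec, Lep and Retn were at 0. The sum of the 6 fibroblast markers did move with genotype, at 771 CPM in KO cells and 111 CPM in control cells, with none at 0 in either library. Over all kept cells Dcn led the KO sum with 352 CPM, against 22.9 CPM in control cells, followed by Lum with 254 and 6.10 CPM. Col14a1 had 136 CPM in KO cells and 69.6 CPM in control cells. Pi16 went the other way, with 1 UMI in KO cells and 79 UMIs in control cells. In the high contractile range the sum was 204 CPM in KO cells and 84.0 CPM in control cells. In the 243 KO cells and 923 control cells without a UMI of this list, the Apoe ratio was 23.5, that of Lpl 3.12 and that of Plin2 1.71. Lrp1 fell under the fold there, at 1.42, and Abca1 passed it, at 1.88.

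The control library also held 128 eGFP-negative macrophage-marker cells, which served as a yardstick. They were chosen for 3 or more summed UMIs of Lyz2, Csf1r, C1qa, C1qb, C1qc and Adgre1, with under 3 UMIs of the lymphocyte markers. Their 35005 CPM for the 13 macrophage markers, of which Lyz2 made up 27570 CPM, is therefore no finding. Of the 128 cells, 40 had no Apoe UMI. They carried 429 Xist UMIs in a library labelled male, so they go against that label and may not come from the same animals. KO SMCs had 2.06 times their Apoe (1.93 to 2.19), at 3508 CPM in KO SMCs and 1707 CPM in the macrophage-marker cells. Lpl was 11.1 times higher in KO SMCs (5.09 to 30.3), at 118 CPM against 10.7 CPM, and Lrp1 2.41 times (1.88 to 3.14), at 265 CPM against 110 CPM. Scarb1, Abcg1 and Plin2 were lower in KO SMCs. Scarb1 had 3.54 CPM in KO SMCs and 90.6 CPM in the macrophage-marker cells, a ratio of 0.0391 (0.0278 to 0.0557), and Abcg1 0.422 and 26.6 CPM, a ratio of 0.0159 (0.00694 to 0.0357). Plin2 had 32.1 CPM in KO SMCs and 99.4 CPM in the macrophage-marker cells, a ratio of 0.323 (0.247 to 0.431), and Cd36, under the level for a call in both, 1.30 and 8.88 CPM, a ratio of 0.146 (0.0578 to 0.475). Abca1 had no UMI in the 128 cells, a floor of 5.33 CPM at 3 counts, against 10.1 CPM in KO SMCs. In this comparison of unlike cells 7 of the 8 genes reached 10 CPM, 4 higher and 3 lower in KO SMCs, beside 50.7% of 8807 genes higher and 23.5% lower, so a large ratio was common.

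A wider list of 71 other genes for lipoproteins, receptors, lipases, sterol transport, lipid droplets and fatty acid use was measured beside these 8. Of 43 at 10 CPM or more, 11 (25.6%) passed the fold upward and 4 (9.30%) downward in KO cells, beside the 13.2% and 11.4% of all genes. The median log2 ratio of the 43 was 0.047, close to the -0.0010 of all genes, and from 1 to 3 genes of each group passed upward.

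Among lipoprotein components and transfer proteins, Pltp, which moves phospholipid between particles, was 4.35 times higher (3.81 to 4.98), at 55.2 CPM in KO cells and 12.7 CPM in control cells. Clu (clusterin, apolipoprotein J) was lower, at 546 CPM in KO cells and 864 CPM in control cells, a ratio of 0.632 (0.619 to 0.646). Of 6 receptors and their helpers, Cxcl16, a membrane scavenger receptor and chemokine, had 10.5 CPM in KO cells and 3.15 CPM in control cells, 3.32 times higher (2.53 to 4.43), and Scarb2, a lysosomal relative of CD36, had 150 and 89.9 CPM, 1.67 times higher. The sorting receptor Sorl1 was at 77.2 CPM in KO cells and 168 CPM in control cells, a ratio of 0.461 (0.437 to 0.486), while Lrpap1, the chaperone of LRP1, had a ratio of 0.912.

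Of 5 lipases and regulators, the lysosomal acid lipase Lipa was 3.26 times higher (2.92 to 3.64), at 63.8 CPM in KO cells and 19.6 CPM in control cells. The neutral lipases did not follow: Pnpla2 (ATGL) had 69.0 CPM in KO cells and 69.1 CPM in control cells, and Mgll a ratio of 0.820 (0.784 to 0.859). Angptl2 was lower, at 25.5 CPM in KO cells and 62.0 CPM in control cells, a ratio of 0.412. Of the 4 genes that move sterol in and out of endosomes, Npc2, the soluble cholesterol carrier of the lysosome lumen, had 408 CPM in KO cells and 137 CPM in control cells, 2.98 times higher (2.86 to 3.11). Its membrane partner Npc1 had 24.3 CPM in KO cells and 23.5 CPM in control cells, a ratio of 1.03 (0.920 to 1.16), and Stard3 and Osbp had ratios of 1.23 and 0.984. The lumenal lipase and the lumenal carrier were thus higher without the membrane transporter.

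The LXR side was mixed. Nr1h3, which encodes LXR-alpha, had 17.1 CPM in KO cells and 7.70 CPM in control cells, 2.23 times higher (1.86 to 2.68), whereas Nr1h2 (LXR-beta) had 67.1 and 82.1 CPM, a ratio of 0.817 (0.766 to 0.873). Mylip, an LXR target that encodes an E3 ligase for the LDL receptor, had a ratio of 1.02 (0.904 to 1.15). Abca2, a transporter related to ABCA1, had a ratio of 1.45 (1.30 to 1.60), beside the 1.43 of Abca1. Of 9 droplet genes at 10 CPM, Abhd5, the coactivator of ATGL, was 1.71 times higher (1.53 to 1.93), Bscl2 (seipin) 1.56 times (1.45 to 1.69), and Cidea, which fuses droplets, lower at 13.5 CPM in KO cells and 31.1 CPM in control cells, a ratio of 0.435 (0.383 to 0.493). Hilpda, an inhibitor of ATGL, had a ratio of 0.867. Of 11 fatty acid genes, Ppargc1a had 14.0 CPM in KO cells and 3.30 CPM in control cells, 4.25 times higher (3.27 to 5.59), and Pparg 10.2 and 4.60 CPM, 2.21 times (1.75 to 2.82). Ppard and Acsl1 had ratios of 0.865 and 0.774.

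**Figure D4:**
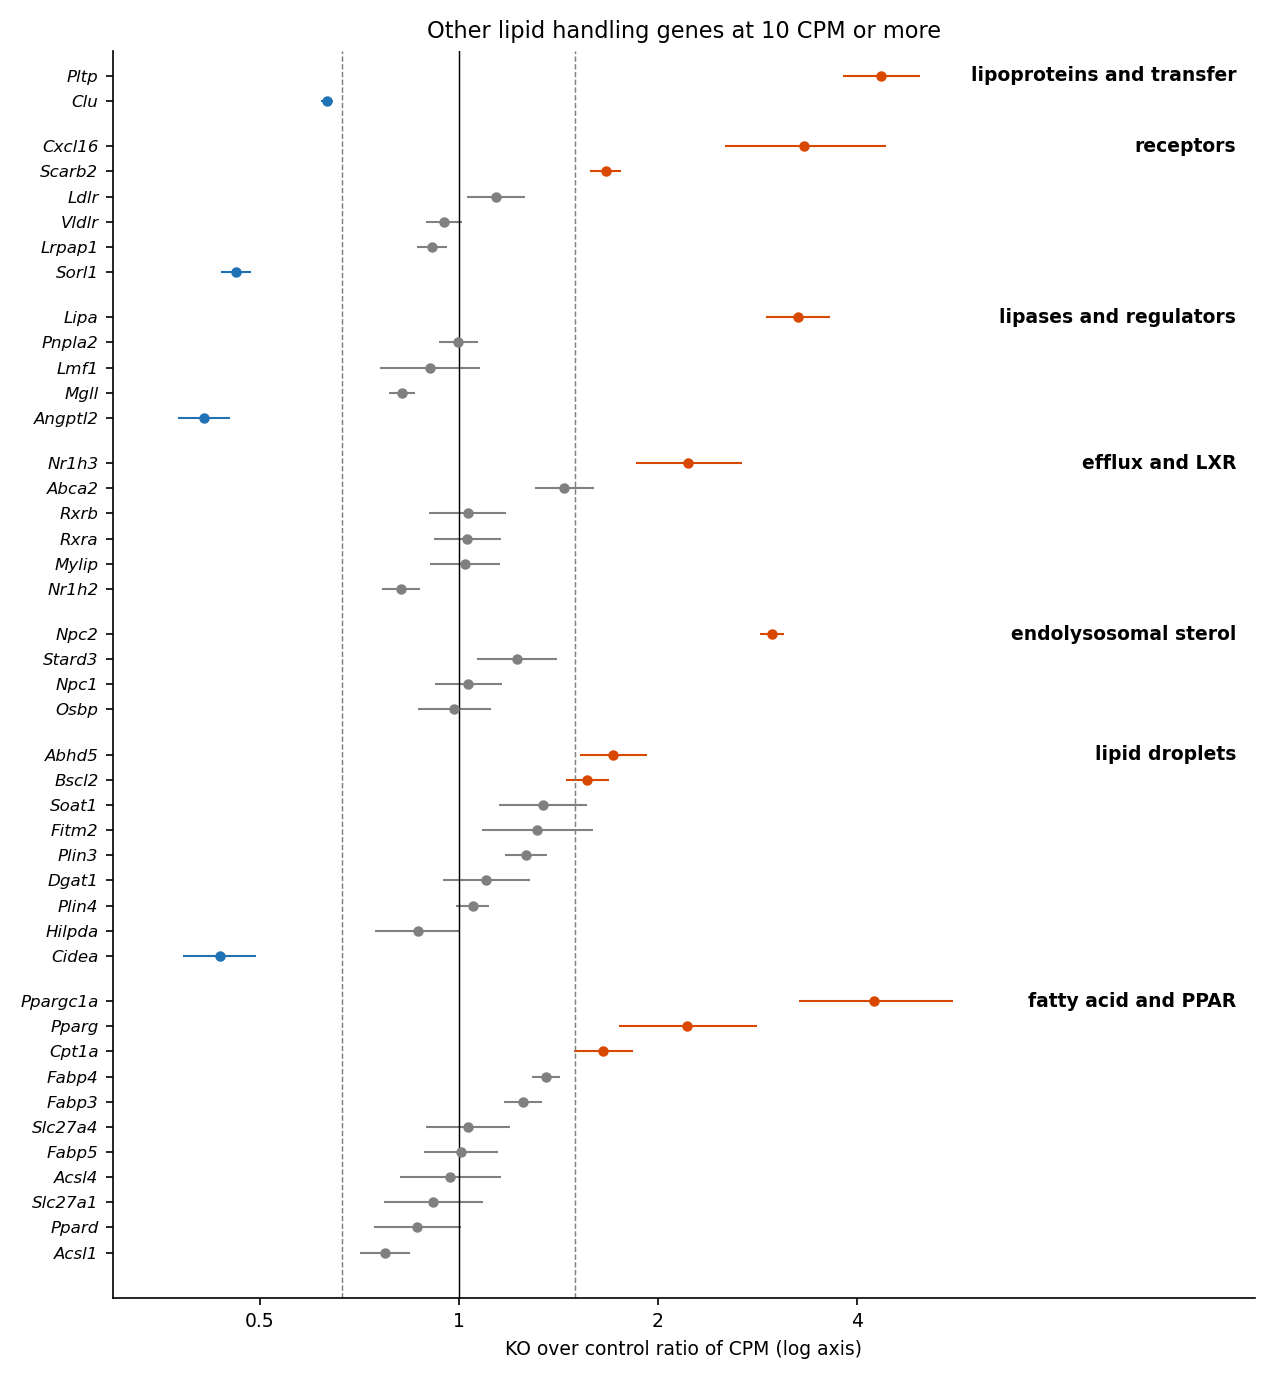
KO over control ratio of CPM (horizontal log axis) with exact 95% intervals for the 43 other lipid genes at 10 CPM or more, grouped by role. Dashed lines mark 1.5-fold either way: 11 genes lie to the right of them, led by Pltp at 4.35 and Ppargc1a at 4.25, and 4 to the left, with Angptl2 lowest at 0.412.

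In the high contractile range 6 of 39 of these genes (15.4%) were higher and 2 (5.13%) lower, beside 9.48% and 10.4% of all genes. Pltp, Lipa, Npc2 and Nr1h3 were 2.67, 2.50, 2.01 and 2.25 times higher there, and Angptl2 had a ratio of 0.313. Cidea moved to a ratio of 0.810 (0.698 to 0.938), and within KO cells it had 4.82 CPM in the low range and 25.7 CPM in the high range. Pltp and Npc2 tracked the contractile range in KO cells in the same direction as Apoe, at 92.3 CPM in the low and 32.9 CPM in the high range for Pltp, and 607 and 269 CPM for Npc2. Mgll had 85.5 CPM in the low range and 169 CPM in the high range.

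Among genes under 10 CPM, 3 with a ratio over 4 were singled out after their values were seen. Olr1, the endothelial oxidized LDL receptor LOX-1, had 53 UMIs in KO cells and none in control cells, at least 11.5-fold higher against a floor of 3 control counts. G0s2, an inhibitor of ATGL, had 72 UMIs in KO cells and 4 in control cells, a ratio of 11.7 (4.38 to 44.1), and Abca7 had 210 and 33 UMIs, a ratio of 4.14 (2.86 to 6.17). Olr1 and G0s2 were also concentrated in KO cells of the low range, with low over high ratios of 21.7 (5.67 to 185) and 30.4 (8.07 to 256).

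The neighbours of Apoe on chromosome 7 did not share its level. Tomm40, which lies just upstream from 19701313 to 19715438, had 52.9 CPM in KO cells and 45.3 CPM in control cells, a ratio of 1.17 (1.08 to 1.27). Downstream, Apoc1 had 1 UMI in each library, and Apoc4 had 5 UMIs in KO cells and 3 in control cells. The symbol Apoc2 stands for 2 identifiers in the files and is given no value.

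The genes whose level across KO cells was most like that of Apoe were sought among 2725 genes at 50 CPM or more, by Pearson correlation of log(1 + counts per 10000) over the 1919 kept cells. The closest was Cst3, which encodes the secreted protease inhibitor cystatin C (r = 0.63), followed by Itm2b, a membrane protein gene (0.53), the secreted ribonuclease Rnase4 (0.52), Mgp, which encodes matrix Gla protein (0.50), the growth factor midkine gene Mdk (0.47), B2m, a subunit of class I molecules (0.46), the selenium transport protein gene Sepp1 (0.45) and Fetub, which encodes the protease inhibitor fetuin-B (0.44). Cells share library and depth here, and abundant genes correlate more easily than sparse ones, so these values describe likeness only. Cst3 was also high on this measure inside the low range (0.63) and the high range (0.50). Of the lipid genes, Npc2 ranked 12 (r = 0.42), Pltp 46 (0.31), Lpl 169 (0.19), Lrp1 458 (0.095) and Lipa 570 (0.074). At the other end were Myh11 (-0.40), Cnn1 (-0.40) and Mylk (-0.39).

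To see how the other genes vary with Apoe at a like contractile state, the 640 KO cells of the low range were ordered by Apoe and divided into 4 groups of 160 cells. The level of Apoe, which set the order, ran from 1256 CPM in the first to 10030 CPM in the last group. CPM of the other genes were scaled here to the total without Apoe UMIs. Pltp had 42.3 CPM in the first and 148 CPM in the last group, and Npc2 429 and 795 CPM, and both increased in every step of this order. Lpl did not increase steadily, at 163, 175, 156 and 208 CPM. Lrp1 had 361, 356, 334 and 312 CPM, and Lipa 78.2 CPM in the first and 78.0 CPM in the last group. The median contractile share went with the order, at 0.719% in the first and 0.436% in the last group, and so did Mgp, at 40093 and 95414 CPM, a gene abundant enough to weigh on the total that CPM is scaled to. In the high range the last group again exceeded the first for Npc2, with 343 CPM against 214 CPM, for Pltp, with 52.9 CPM against 26.4 CPM, and for Lpl, with 77.2 CPM against 48.7 CPM.

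A minor population with 3 or more summed UMIs of the homeobox genes Dlx5, Dlx6 and Msx2 was present in both libraries, as 66 KO cells and 184 control cells. In the KO library these cells had Apoe at 3505 CPM, against 3508 CPM in the others, a ratio of 0.999 (0.968 to 1.03). Their median contractile share was 0.704%, against 2.15% in the other KO cells. KO cells of the low range as a whole had Apoe at 4782 CPM, and no comparison at a like share was made. In the control library the 184 cells had more Apoe, 252 CPM against 138 CPM in the other cells, a ratio of 1.83 (1.66 to 2.01). Their median contractile share was 3.24%, against 4.96% in the other control cells. Lpl was lower in the cells of this population in both libraries, at 84.6 CPM against 120 CPM in KO cells and 12.9 CPM against 29.4 CPM in control cells. Of the 40 Cd36 UMIs of the KO library, 10 lay in these 66 cells, 8.46 CPM against 1.01 CPM in the other KO cells, a ratio of 8.35 (3.64 to 17.5). Of the same 40 UMIs, 32 lay in KO cells of the low range.

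Cells removed for over 10% mitochondrial UMIs also differed in Apoe and Lpl between the libraries, and less so in Lrp1. The 146 such KO cells had Apoe at 2418 CPM, Lpl at 119 CPM and Lrp1 at 326 CPM, and the 45 such control cells had Apoe at 95.6 CPM, Lpl at 31.9 CPM and Lrp1 at 314 CPM. The libraries shared 16 cell barcodes, 4 of them kept in both. In those 4 pairs the KO cells had 17, 161, 27 and 13 Apoe UMIs and the control cells with the same barcodes had 0, 0, 0 and 29. Without all cells of shared barcodes the Apoe ratio was 23.6 (22.8 to 24.5) and that of Lpl 4.28.

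In the authors' deposited table of cluster averages, in mean counts per 10000, Apoe ranged from 15.5 to 60.6 over the 5 KO columns with an eGFP average of at least 5, and from 1.33 to 22.6 over the 5 such control columns. The authors' deposited table gave Lpl at 0.352 to 1.65 in these KO columns and 0.149 to 0.357 in the control columns. For Lrp1 the authors' deposited table gave 1.12 to 2.92 in these KO columns and 0.308 to 3.51 in the control columns, so its highest value was in a control column. In the authors' deposited table a single control cluster, numbered 2, carried the 22.6 of Apoe, and the other 4 eGFP-bearing control columns were at 2.99 or below. That control column read 0 for Abca1, Abcg1, Cd36, Plin2 and Scarb1. The number of cells behind it was not at hand, and it may rest on few. The KO column of the same cluster had 60.6 of Apoe.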

How the data were processed

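Raw UMI counts per gene and cell were deposited by the authors for each library. The submitters' processing notes name mm10, Seurat 2.0, Cell Ranger and bcl2fastq, and give a version for Seurat only. A further deposited table holds the authors' cluster averages, a signal in mean counts that sums to 10000 per column, as judged from the values. The way cells were called among all barcodes was not given in the sources used.

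The deposited counts were summed over cells and scaled to CPM by the summed total. In the groups of KO cells ordered by Apoe, the other genes were scaled by the total without Apoe UMIs. Ratios got exact conditional binomial intervals, levels exact Poisson intervals and shares Clopper-Pearson intervals, all at 95%. In the lists of genes, a ratio of at least 1.5 or at most its inverse counted as a difference, at 10 CPM or more on 1 side. A count of 0 was set against a floor of 3 counts, 0.0975 CPM in KO cells and 0.150 CPM in control cells. Cells removed were 146 KO and 45 control cells over the mitochondrial limit and 32 KO and 358 control cells under 5 eGFP UMIs. Scrublet (scanpy 1.11.5), run per library, called 6 KO and 6 control cells doublets, under the share at which the caller counts as working, so doublets were kept. The count procedure recovered known ratios on simulated counts with Poisson error alone. Those counts held no spread between cells, so they are no check of the intervals where cells differ. Tools were Python 3.11.15, numpy 2.4.6, scipy 1.17.1, pandas 2.3.3, R 4.3.3 and edgeR 4.0.16 (TMM factors only).

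The 8 genes, the list of 71 other lipid genes and the cell type markers were chosen with earlier results of these data known. Named from each lipid group were, among genes at 10 CPM, the 2 with the highest and the 2 with the lowest ratio and any changed 4 or more times, then the 8 genes most like Apoe and its neighbours on the chromosome. Gene positions came from GENCODE, in which 27645 of 27998 identifiers were found. Alternatives were the eGFP, gene and mitochondrial limits, library scaling, weighting each cell equally, the fold and the level, the contractile limits, thinning depth, and leaving out doublets, Dlx/Msx2 cells, cells with a macrophage UMI, cells of shared barcodes or cells with a fibroblast-list UMI, these last 2 added after seeing the data.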

Additional observations from a re-analysis of the deposited data

How the results depend on the processing

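No ratio called past the fold changed direction under any alternative tried. Of 214 member ratios recomputed under the alternatives, 9 lay on the other side of 1, all of genes under 10 CPM. Scarb1, KO over control, had 0.903 with each cell weighted equally, against 1.07. Abcg1 and Cd36 had no UMI in KO cells without a fibroblast-list UMI, and in the high range, where their ratios were 0.872 and 1.31, each changed side under 3 alternatives, up to 2.91 for Abcg1 and down to 0 for Cd36. The count of genes past 1.5-fold between KO and control cells was 1998 (1073 higher, 925 lower), against 795 with a minimum of 50 CPM, 8533 with no minimum and 895 past 2-fold. Past 2-fold, 2 of the 5 members (Apoe and Lpl) were called instead of 4. The other lipid genes past 1.5-fold numbered 15, against 8 at 50 CPM and 32 with no minimum. The median KO over control ratio of the measured members was 1.59, and became 2.80 with an eGFP minimum of 20 UMIs and 2.97 without cells that had a macrophage-list UMI, in both of which Abca1 fell under 10 CPM and 4 members remained measured. It was 1.88 without cells that had a fibroblast-list UMI. The median low over high ratio in KO cells was 1.77, against 1.65 for 2 equal parts, 1.97 for the outer 2 of 5 equal parts and 1.94 without Acta2 and Tagln in the contractile share. Over 13 alternatives the Apoe ratio lay between 20.0 (each cell weighted equally) and 25.7, that of Lpl between 3.12 and 4.85, Lrp1 between 1.42 and 1.58, Plin2 between 1.51 and 1.77, and Abca1 between 1.31 and 1.88. Lrp1 missed the fold only without cells that had a fibroblast-list UMI, and Abca1 passed it only there and with each cell weighted equally. Of 32 shares of cells recomputed at 3000 UMIs or unthinned, 23 left the interval of the share at 5000 UMIs. Scaling by TMM or by median-of-ratios size factors moved log2 ratios by -0.011 and -0.0093. For 2 low over high ratios (Abcg1 and Cd36 at most 5% mitochondrial UMIs) the high range had no UMI and no ratio was given. Depth limits Abcg1, Cd36 and Scarb1, whose intervals stayed wide. No paired analysis was possible because each genotype has 1 library and the labels carry no replicate numbers.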
